A study of Mus musculus with 6 samples.

Results

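Wnt7a, En1 and Lmx1b, the genes that divide the limb bud into dorsal and ventral sides, were followed in limb bud tips of mouse embryos with and without extra Meis2. They were taken by gene symbol, and each of the 3 genes had a single row among the 12065 genes of the expression table. Distal tips were profiled by RNA sequencing in 6 libraries, each made from a pool of 2 embryos. All embryos were homozygous for R26Meis2a-IRES-EYFP, a transgene in the Rosa26 locus that gives Meis2 isoform a and a yellow fluorescent protein once Cre has acted, and all dams received 0.8 mg of 4-hydroxytamoxifen into the peritoneum at embryonic day 8.3. The 3 overexpressing pools also carried HoxB6CreER, a tamoxifen-dependent Cre. The 3 control pools carried no Cre, so an effect of Cre itself cannot be told apart from that of Meis2. Each genotype had 1 pool at 37, 38 and 39 somites, which are replicates 1, 2 and 3, so replicate number and stage are the same thing. The HoxB6 driver is known for activity in the lateral mesoderm that forms limb mesenchyme. The labels do not say whether forelimb or hindlimb tips were taken.

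Wnt7a encodes a secreted WNT ligand of the dorsal limb ectoderm. En1 encodes the Engrailed-1 homeodomain repressor of the ventral limb ectoderm, where it is induced by BMP signalling through the receptor Bmpr1a and keeps Wnt7a out. Wnt7a induces Lmx1b, a LIM-homeodomain factor, in the underlying dorsal mesenchyme, which takes on dorsal fate. In whole tips the ectodermal pair is therefore read from a thin cell layer and Lmx1b from the dorsal part of the mesenchyme. Because tissue was measured in bulk, fewer cells of a type and less RNA per cell cannot be told apart.

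The promoter of each gene is shown because the experiment changes a DNA-binding homeodomain factor, and the 3 genes sit at successive steps of one pathway. Each sequence runs 5′ to 3′ on the strand of its gene from 250 bases before to 50 bases after the annotated start, from RefSeq on GRCm38.p6. This is a later build than the NCBIM37 build named in the submitters' processing notes. The windows are chr6:91411304-91411603 on the minus strand for Wnt7a, chr1:120602237-120602536 on the plus strand for En1 and chr2:33641049-33641348 on the minus strand for Lmx1b. Capitals mark matches to 4 short motifs searched on both strands: TGACAG, a core bound by MEIS proteins, CTTTGA, a core of TCF/LEF sites, TAATTA, a homeodomain palindrome, and GGCGCC, a GC-rich SMAD element.
Wnt7a: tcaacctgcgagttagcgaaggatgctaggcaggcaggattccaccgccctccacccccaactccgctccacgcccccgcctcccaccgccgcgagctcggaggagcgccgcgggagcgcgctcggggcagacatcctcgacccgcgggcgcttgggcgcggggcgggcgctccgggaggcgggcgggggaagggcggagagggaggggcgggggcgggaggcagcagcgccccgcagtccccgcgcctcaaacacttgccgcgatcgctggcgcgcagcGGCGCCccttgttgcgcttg
En1: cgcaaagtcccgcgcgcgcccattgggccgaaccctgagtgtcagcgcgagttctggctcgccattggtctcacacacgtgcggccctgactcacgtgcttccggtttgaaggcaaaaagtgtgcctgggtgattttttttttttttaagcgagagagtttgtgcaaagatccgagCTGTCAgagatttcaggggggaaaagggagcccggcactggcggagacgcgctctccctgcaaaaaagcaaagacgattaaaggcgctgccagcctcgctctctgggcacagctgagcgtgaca
Lmx1b: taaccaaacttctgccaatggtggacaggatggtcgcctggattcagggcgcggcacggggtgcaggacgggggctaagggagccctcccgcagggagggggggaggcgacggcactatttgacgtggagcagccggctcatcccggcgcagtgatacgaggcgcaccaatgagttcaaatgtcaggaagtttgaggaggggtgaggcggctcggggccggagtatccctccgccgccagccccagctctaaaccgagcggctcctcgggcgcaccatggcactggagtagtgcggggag

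The En1 window held 1 TGACAG, written as CTGTCA because it lies on the opposite strand, with its first base 74 bases before the start. The Wnt7a window held 1 GGCGCC, beginning at base 31 after the start, and the Lmx1b window held none of the 4 motifs. The matches did not overlap one another. Over 32851 RefSeq promoter windows of the same length, 19.2% held TGACAG, 16% CTTTGA, 5.29% TAATTA and 11.9% GGCGCC. GC content was 76% in the Wnt7a window, 57% in En1 and 65.7% in Lmx1b, against a median of 52.7% over all windows. These matches describe letters in the windows and say nothing of binding.

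The libraries held 7622698 to 15395447 reads assigned to genes, recovered from the deposited CPM, the read count scaled to library depth. Meis2 was 20.6, 15.3 and 13.8 CPM in control pools 1 to 3 and 41.3, 33.4 and 28.2 CPM in overexpressing pools 1 to 3. It was therefore higher in every overexpressing pool, 2.07 times the control mean (log2 fold change 1.01, SE 0.16, adjusted p = 0.0185 by limma with Benjamini-Hochberg adjustment). That call was lost without control pool 2 or 3 or overexpressing pool 2 (limma adjusted p = 0.0681, 0.0693 and 0.0651). With all pools kept, it was also lost under robust eBayes without a trend (adjusted p = 0.0676 by limma). Over all genes, limma called 177 of 12065 (1.47%) between genotypes at an adjusted p under 0.05, with 95 higher (0.787%) and 82 lower (0.680%) under overexpression. All log2 fold changes below are overexpression minus control on log2(CPM + 1), which understates the change of genes with low values.

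Lmx1b was the most abundant of the 3 genes and Wnt7a and En1 followed. Per kilobase of merged exon in the GENCODE M21 annotation, control pools held 18.7 ± 2.1 CPM of Lmx1b, 5.7 ± 1.0 of Wnt7a and 1.62 ± 0.14 of En1 (SD, n = 3 pools). Overexpressing pools held 25.7 ± 2.4, 4.61 ± 1.2 and 1.06 ± 0.089 CPM per kilobase in the same order. The ranges over all 6 pools did not overlap between neighbours, with 16.8 to 28.4 for Lmx1b, 3.61 to 6.75 for Wnt7a and 0.962 to 1.73 for En1. By mean CPM, without regard to length, 81.2% of genes in the table lay below Lmx1b, 32.4% below Wnt7a and 7.53% below En1. None of the 3 genes had a near-identical transcript copy. Lmx1b overlaps Gm38011, an unclassified gene model on the opposite strand, and the library kit does not mark strand, so reads from it cannot be told apart from Lmx1b reads.

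Wnt7a, the dorsal ectodermal ligand, did not pass the test between genotypes. It was 21.4, 18.0 and 14.9 CPM in control pools 1 to 3, from 226, 206 and 124 reads. In overexpressing pools 1 to 3 it was 19.0, 13.5 and 11.4 CPM, from 203, 104 and 177 reads. The groups overlapped, since overexpressing pool 1 lay above control pools 2 and 3. The means were 18.1 ± 3.28 and 14.6 ± 3.90 CPM (SD, n = 3), with a log2 fold change of -0.30 (SE 0.18, 95% confidence interval -0.70 to 0.10, limma adjusted p = 0.44). At matched somite numbers Wnt7a was lower in the overexpressing pool each time, at 0.887 times the control level at 37 somites, 0.749 times at 38 and 0.771 times at 39. Of all genes in the table, 19.0% were lower at each of the 3 stages. With somite number as a covariate the limma adjusted p of Wnt7a was 0.165.

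Wnt7a was lower at each later stage in both genotypes. The slope was -0.30 per somite on the log2 scale (SE 0.06, 95% confidence interval -0.43 to -0.16). Its unadjusted p was 0.000649 and its adjusted p was 0.1 by limma, so it did not pass. An unadjusted slope p under 0.05 by limma, a much looser cut than the p of Wnt7a, was found for 6.28% of all genes. For comparison, 2.87% of genes stepped down from 37 to 38 to 39 somites in both genotypes, and 43 genes (0.356%) had a slope that passed in either direction, 12 of them falling (0.0995%). The spread of Wnt7a within a genotype, 3.28 CPM in controls and 3.90 in overexpressing pools, exceeded the counting errors of 1.34 and 1.19 CPM. With 1 pool per genotype at each stage, stage and pool cannot be told apart within a genotype.

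En1, the ventral ectodermal repressor, was lower in every overexpressing pool than in any control pool, but did not pass the test. It was 4.55, 4.36 and 3.83 CPM in control pools 1 to 3, from 48, 50 and 32 reads. In overexpressing pools 1 to 3 it was 2.53, 2.98 and 2.85 CPM, from 27, 23 and 44 reads. Of all genes, 20.7% had groups that did not overlap, and 10.4% did so with the lower level under overexpression. The means were 4.25 ± 0.370 and 2.78 ± 0.233 CPM (SD, n = 3), so the overexpressing level was 0.655 times the control level. The log2 fold change was -0.47 (SE 0.15, 95% confidence interval -0.80 to -0.14), with an unadjusted p of 0.0101 and an adjusted p of 0.169 by limma. An unadjusted p under 0.05 with a lower level was found for 7.77% of genes.

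En1 rested on few reads. The 3 control pools held 130 En1 reads in all and the 3 overexpressing pools 94. The exact 95% Poisson intervals of single pools lay within 2.62 to 6.03 CPM for controls and 1.66 to 4.47 CPM for overexpressing pools. Each belongs to 1 pool, so their overlap does not say whether counting error covers the difference between genotypes. Counting error alone is 0.651 CPM per control pool and 0.518 CPM per overexpressing pool, more than the SD seen between pools (0.370 and 0.233 CPM). These intervals cover counting error only. En1 had no slope with stage that could be detected (-0.02 per somite, SE 0.10, limma adjusted p = 0.991). The overexpressing pool held 0.555 times the control level at 37 somites, 0.683 times at 38 and 0.742 times at 39.

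Lmx1b, the dorsal mesenchymal factor, was higher in every overexpressing pool and passed the test. It was 102, 81.7 and 89.9 CPM in control pools 1 to 3, from 1074, 937 and 751 reads. In overexpressing pools 1 to 3 it was 121, 139 and 116 CPM, from 1291, 1071 and 1798 reads. The groups did not overlap, and 10.4% of all genes were higher in the same way. The means were 91.1 ± 10 and 125 ± 11.9 CPM (SD, n = 3), a 1.37-fold difference. The log2 fold change was 0.46 (SE 0.09, 95% confidence interval 0.25 to 0.66, limma adjusted p = 0.0413). Of all genes, 0.787% were called higher.

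At matched somite numbers Lmx1b was higher by 18.7% at 37, 69.7% at 38 and 29.3% at 39 somites. The middle stage combined the lowest control pool with the highest overexpressing pool. The call held without control pool 1 or overexpressing pool 3 (limma adjusted p = 0.0317 and 0.0427) and was lost without any other single pool. The limma adjusted p was 0.12 without control pool 2, 0.144 without control pool 3, 0.0629 without overexpressing pool 1 and 0.142 without overexpressing pool 2. Robust eBayes without a trend also lost the call (adjusted p = 0.117 by limma), as did replicate number as a block (adjusted p = 0.0612 by limma). The call held with somite number as a covariate (limma adjusted p = 0.0243). The log2 fold change stayed between 0.38 and 0.54 in the 6 fits with 1 pool left out. Lmx1b had no slope with stage that could be detected (-0.06 per somite, SE 0.05, limma adjusted p = 0.972).

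**Figure D1:**
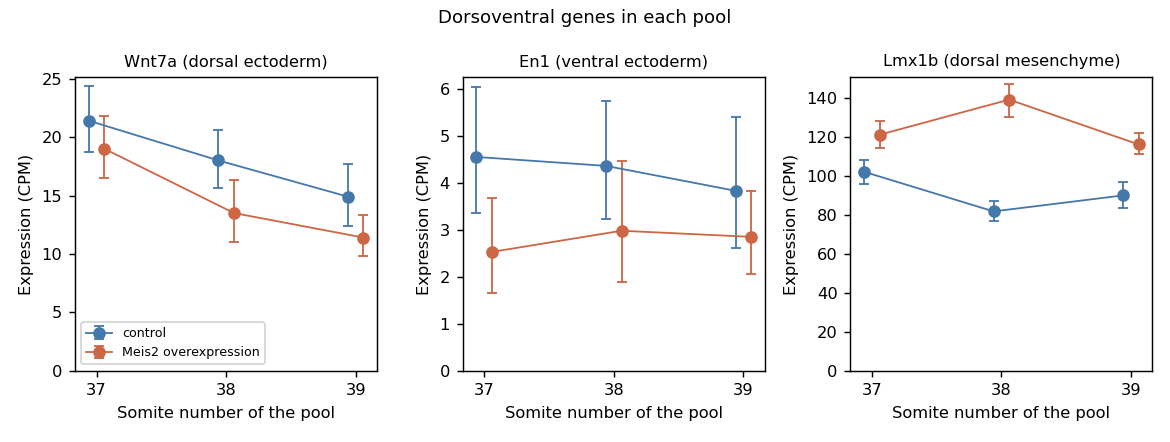
CPM of Wnt7a, En1 and Lmx1b in each pool against somite number, on a linear axis from 0, with controls and Meis2-overexpressing pools as separate lines and bars for the exact 95% Poisson interval of each read count. Wnt7a steps down with stage in both genotypes, En1 lies between 2.53 and 2.98 CPM in overexpressing pools and between 3.83 and 4.55 in controls, and Lmx1b lies above all controls in each overexpressing pool.

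Each gene was next set against markers of the layer in which it is known to be expressed. Ectoderm markers as a list were lower under overexpression: 19 of 20 measured genes had a negative log2 fold change, with a median of -0.32 against -0.00 over all genes. limma called 4 of them lower and none higher, against 0.680% of all genes called lower. The 4 were Epcam, Cdh1, Trp63 and Perp, genes of epithelial adhesion and identity. Their log2 fold changes were -0.57, -0.50, -0.48 and -0.48 (adjusted p = 0.00332, 0.00562, 0.0189 and 0.0305 by limma). The summed level of the list was 733 to 769 CPM in controls and 575 to 598 CPM in overexpressing pools. The Epcam and Cdh1 calls held when any single pool was left out. The Trp63 call was lost without control pool 2 or 3 or overexpressing pool 2 (limma adjusted p = 0.0562, 0.0905 and 0.0768). The Perp call was lost without any single pool other than overexpressing pool 1 (limma adjusted p of 0.0539 to 0.114). The groups' sums did not overlap, so both ectodermal genes were also read as shares of this sum.

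As a share of the summed ectoderm markers, Wnt7a was 2.79, 2.45 and 1.93% in control pools 1 to 3 and 3.17, 2.28 and 1.99% in overexpressing pools 1 to 3. The groups overlapped, with a difference of 0.06 on the log2 scale of CPM + 1 values, used for each such difference below (two-sided exact permutation test over the 20 splits of pools, p = 0.9). En1 was 0.593, 0.595 and 0.499% of the ectoderm sum in control pools and 0.422, 0.505 and 0.494% in overexpressing pools. These groups overlapped too, with a difference of -0.11 (exact permutation p = 0.3). The overlap of the plain shares lay between control pool 3, where En1 had 32 reads, and overexpressing pool 2, where it had 23. On the log2 scale control pool 3, at -7.32, lay below overexpressing pools 2 and 3, at -7.21 and -7.23. Leaving out a pool that made an overlap can remove it by that choice alone, so such a loss says nothing of the genotypes. With each pool left out in turn the difference ran from -0.18 to -0.05 (exact permutation p of 0.1 to 0.7). It was -0.18 without control pool 3 and -0.14 without overexpressing pool 2. With all pools kept, the mean plain share was 0.562% in controls and 0.474% under overexpression. The log2 difference was -0.23 with a pseudocount of 0.1 and 0.11 with a pseudocount of 5. Its sign turned only with the latter, a constant larger than every En1 value and small against the ectoderm sum. With 3 pools in each genotype, the smallest p this test allows is 0.1.

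The ratio of dorsal ligand to ventral repressor, Wnt7a over En1, was 4.71, 4.12 and 3.88 in control pools 1 to 3. It was 7.52, 4.52 and 4.02 in overexpressing pools 1 to 3. The groups overlapped, and the overexpressing pool at 37 somites stood highest, where En1 rested on 27 reads. The log2 difference was 0.17 (exact permutation p = 0.7).

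Mesenchyme markers as a list gave no call. Of 14 measured genes, 9 had a positive and 5 a negative log2 fold change, with a median of 0.07. limma and edgeR called 0 and DESeq2 called 1. By limma 4 had an unadjusted p under 0.05, against 15.9% of all genes. Prrx1, a homeobox gene of limb mesenchyme, was 460, 444 and 358 CPM in control pools and 580, 566 and 477 CPM in overexpressing pools (log2 fold change 0.37, SE 0.10, limma adjusted p = 0.13). It was called by DESeq2 (adjusted p = 0.0092) and with somite number as a covariate (limma adjusted p = 0.0152). Cdh2, the gene of N-cadherin, was 98.6 ± 2.78 and 82.2 ± 4.59 CPM (SD, n = 3; log2 fold change -0.26, limma adjusted p = 0.0775). Twist2, named after its values were seen, had a log2 fold change of 0.45 (limma adjusted p = 0.182), close to that of Lmx1b. The summed level of the list was 2045 to 2078 CPM in controls and 2131 to 2170 CPM in overexpressing pools. Lmx1b was 4.94, 3.93 and 4.4% of that sum in control pools 1 to 3 and 5.67, 6.39 and 5.42% in overexpressing pools 1 to 3. The groups did not overlap, with a difference of 0.40 on the log2 scale and an exact permutation p of 0.1, the smallest that this design allows. This compares Lmx1b with the sum of the list, whose members differed in direction, and not with each member. Its ratio to Wnt7a, chosen after the values were seen and not tested, was 4.75, 4.55 and 6.06 in controls and 6.36, 10.3 and 10.2 in overexpressing pools.

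**Figure D2:**
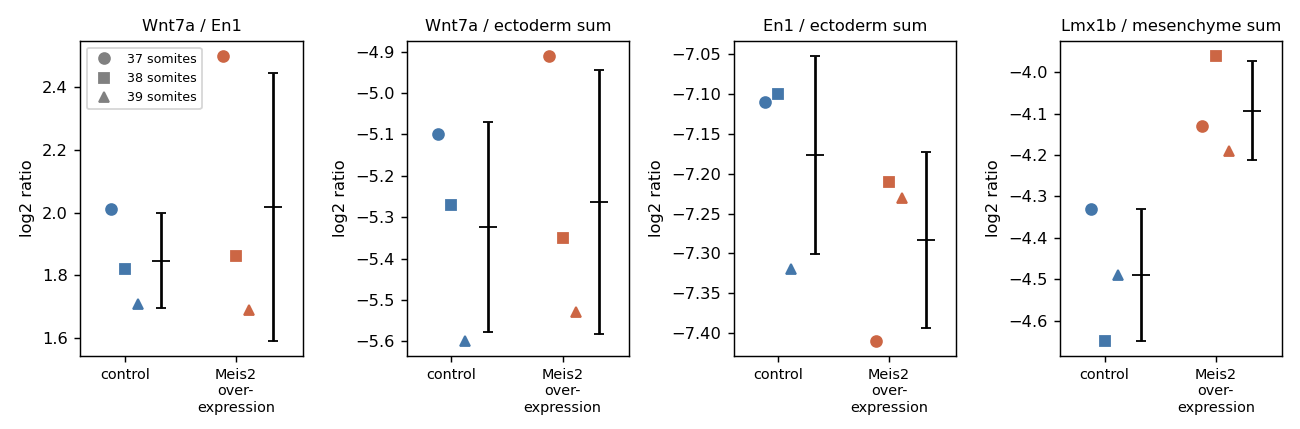
Log2 ratio in each pool for Wnt7a over En1, Wnt7a and En1 over the summed ectoderm markers, and Lmx1b over the summed mesenchyme markers, taken on CPM + 1, with each pool as a point shaped by somite number and black bars for the group mean ± SD. Only the Lmx1b ratio of these 4 separates the genotypes, with a mean of -4.49 in controls and -4.09 under overexpression.

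Marker lists of other cell types were also compared between the groups. Erythroid markers were higher, with a summed level of 2584 to 3768 CPM in controls and 4412 to 5243 CPM in overexpressing pools and 3 of 14 called (Hbb-b2, Slc4a1 and Hba-x). Endothelial markers summed to 260 to 298 CPM in controls and 327 to 344 CPM under overexpression, with Kdr the 1 call of 12. The erythroid and endothelial calls were all higher, against 0.787% of all genes called higher. limma lost the 3 erythroid calls and the Kdr call without overexpressing pool 2 (adjusted p of 0.0778 to 0.15), and each of them also without other single pools. Neural markers summed to 34.6 to 38.4 CPM in controls and 30.4 to 33 CPM under overexpression, which did not overlap, and muscle and trunk markers to 18.4 to 40.9 and 29.4 to 45.1 CPM, which did. Each list had a row for 4 of 12 genes, and limma, edgeR and DESeq2 called 0 of either. By limma 2 neural genes and 1 muscle or trunk gene had an unadjusted p under 0.05, against 15.9% of all genes. The neural genes Erbb3 and Tubb3 had log2 fold changes of -0.32 and -0.27 (limma adjusted p = 0.233 and 0.25). Meox2, a homeobox gene of somites and limb muscle precursors, was 24, 17.4 and 8.50 CPM in control pools and 34.4, 35.2 and 20 CPM in overexpressing pools. Its groups overlapped, and its log2 fold change was 0.88 (SE 0.32, limma adjusted p = 0.221, and 0.0153 with somite number as a covariate). Chrna1, a muscle acetylcholine receptor gene, had a log2 fold change of -0.36 (limma adjusted p = 0.375). Sox2, Sox10, Pax3, Pax7 and Myf5, defining genes of those types, had none. The part of these marker lists in the results for Wnt7a, En1 and Lmx1b was not tested.

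Upstream of En1, BMP signalling genes gave no call. Of 16 measured genes, 10 had a negative and 6 a positive log2 fold change, with a median of -0.11. limma, edgeR and DESeq2 called 0 of them. By limma 2 had an unadjusted p under 0.05, both lower, against 15.9% of all genes in either direction and 7.77% lower. Those 2 were Bmpr1a, the receptor needed for En1, at 284 ± 11.3 CPM in controls and 259 ± 7.78 under overexpression, and the ligand Bmp4, at 91.1 ± 8.45 and 80.5 ± 3.83 CPM (SD, n = 3). Their log2 fold changes were -0.13 and -0.17 (limma adjusted p = 0.287 and 0.299). The ligands Bmp2 and Bmp7, also made in the ridge ectoderm, had log2 fold changes of -0.32 and -0.17 (limma adjusted p = 0.357 and 0.33). The 95% confidence interval of the Bmpr1a difference ran from -0.25 to -0.01 on the log2 scale.

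Among genes that release and receive WNT signals, limma called 2 of 25 lower and 0 higher, with a list median of 0.08. Over all genes it called 0.680% lower and 0.787% higher. Wls, which carries WNT proteins to the cell surface, was 206, 225 and 234 CPM in control pools and 168, 158 and 186 CPM in overexpressing pools. The groups did not overlap, as for 10.4% of all genes with the lower level under overexpression. The log2 fold change was -0.37 (SE 0.07, limma adjusted p = 0.0396). Fzd1, a frizzled receptor, fell from 88.7 ± 4.89 to 68.4 ± 6.09 CPM (SD, n = 3; log2 fold change -0.37, SE 0.08, limma adjusted p = 0.0494). The Wls call was lost without control pool 2 or 3 or overexpressing pool 1 or 2, at adjusted p of 0.0784 to 0.163. The Fzd1 call was lost when any single pool other than overexpressing pool 3 was left out, at adjusted p of 0.0899 to 0.189, and by edgeR at 0.059.

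Reck and Gpr124, co-receptors known from mouse brain vessels to be selective for Wnt7a and Wnt7b, had log2 fold changes of 0.22 and 0.30 (limma adjusted p = 0.15 and 0.201). Reck was 39.2 ± 0.924 CPM in controls and 45.7 ± 0.938 under overexpression, and Gpr124 67.9 ± 9.15 and 83.7 ± 7.81 CPM (SD, n = 3). Ctnnb1, the gene of beta-catenin, had a log2 fold change of -0.17 (limma adjusted p = 0.194). Axin2, a feedback target of beta-catenin, was 76.8 ± 5.61 and 75.4 ± 7.41 CPM, with a 95% confidence interval of -0.22 to 0.16 on the log2 scale.

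Of the other WNT ligands 9 of 18 listed were measured, and 1 of them passed. Of the 9, 8 had a negative log2 fold change, with a list median of -0.41. In 7 the groups did not overlap and the level was lower, as for 10.4% of all genes. Wnt6, an ectodermal ligand, was the single call, against 0.680% of all genes called lower. It was 32.5, 28.2 and 29.7 CPM in control pools and 19.3, 22.7 and 19.8 CPM in overexpressing pools (log2 fold change -0.53, SE 0.09, limma adjusted p = 0.0262). That call was lost when any single pool other than overexpressing pool 2 was left out, at adjusted p of 0.0529 to 0.0956. Wnt7b, the closest relative of Wnt7a, was 15.7 ± 1.88 and 11.4 ± 1.76 CPM (SD, n = 3) and did not pass (log2 fold change -0.43, limma adjusted p = 0.161). Wnt3, needed for the apical ridge, had a log2 fold change of -0.41, Wnt10b of -0.48 and Wnt4 of -0.36, none of which passed. Wnt5a, the ligand of the distal mesenchyme, was 547 ± 63.5 and 417 ± 56.4 CPM (SD, n = 3; log2 fold change -0.39, limma adjusted p = 0.119, and 0.0055 with somite number as a covariate). Wnt11 was the exception in direction, at 2.20 ± 0.394 and 3.42 ± 0.631 CPM, and did not pass. The Wnt7a difference of -0.30 lay between those of Wnt4 and Wnt5b, a ligand with a log2 fold change of -0.03.

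**Figure D3:**
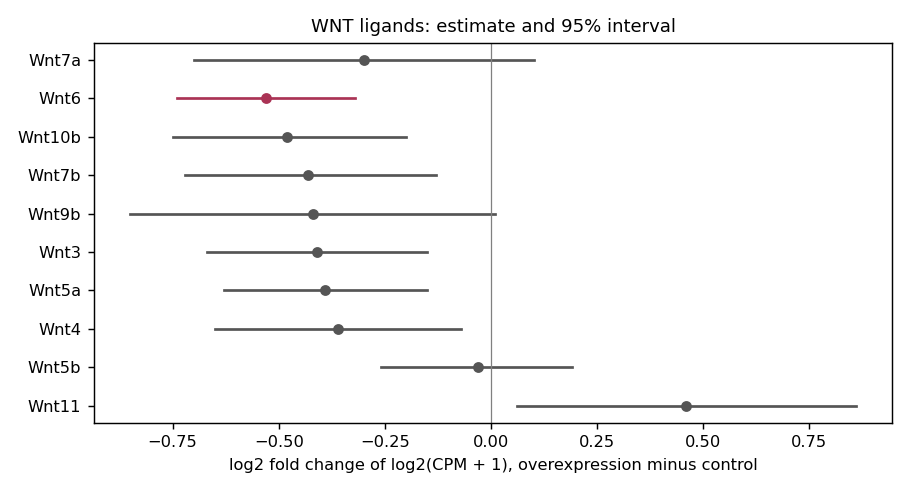
Log2 fold change of each measured WNT ligand gene on log2(CPM + 1), overexpression minus control, with 95% confidence intervals from limma. Wnt6 at -0.53 passed the adjusted threshold, Wnt7a at -0.30 had an interval that crossed 0, and Wnt11 at 0.46 was the ligand with a positive value.

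Genes of the apical ridge, which lies at the border of the dorsal and ventral ectoderm, were lower as a list. All 12 measured genes had a negative log2 fold change, with a median of -0.47. Over all genes, 6037 of 12065 were negative, with a median of -0.00. limma called 6 ridge genes lower, against 0.680% of all genes. They were Fgf8, Fgf4 and Fgf9, ridge growth factors, Sp6 and Sp8, factors needed for the ridge, and Rspo2, a WNT amplifier. The summed level was 326 to 359 CPM in controls and 208 to 238 CPM in overexpressing pools. Fgf8 itself was 94.6 ± 5.35 and 56.5 ± 10.2 CPM (SD, n = 3; log2 fold change -0.75, limma adjusted p = 0.0114). All 6 ridge calls were lost by limma without control pool 3 or without overexpressing pool 2 (adjusted p of 0.0519 to 0.144), and some also without other pools. The part of the ridge in the En1 and Wnt7a values was not tested.

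Among LIM-domain partners and relatives of Lmx1b and co-repressors of En1, limma called 1 of 19 higher and 0 lower, with a list median of 0.10. Over all genes it called 0.787% higher and 0.680% lower. The call was Ldb2, an adaptor that binds LIM-homeodomain proteins, at 9.75, 9.86 and 6.71 CPM in control pools and 18.0, 15.7 and 13.4 CPM in overexpressing pools. The groups did not overlap, as for 10.4% of all genes with the higher level under overexpression. The log2 fold change of Ldb2 was 0.78 (SE 0.16, limma adjusted p = 0.0445). It was lost when any single pool other than overexpressing pool 3 was left out, at adjusted p of 0.0697 to 0.141. Its relative Ldb1, the more abundant adaptor, was 181 ± 15.2 and 191 ± 12.7 CPM (SD, n = 3; log2 fold change 0.08, limma adjusted p = 0.627).

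Lmx1a, the closest relative of Lmx1b, was 2.27, 2.36 and 2.28 CPM in control pools and 2.71, 4.53 and 4.53 CPM in overexpressing pools. It was higher with no overlap, as were 10.4% of all genes, but did not pass (log2 fold change 0.55, SE 0.19, limma adjusted p = 0.201). Lhx2, a LIM-homeodomain gene of the distal mesenchyme, had a log2 fold change of 0.24 (limma adjusted p = 0.209). Lmo2, a LIM-only protein gene, was 92.4 ± 16.0 and 67.9 ± 12.7 CPM (SD, n = 3; log2 fold change -0.44, limma adjusted p = 0.168, and 0.00991 with somite number as a covariate).

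Genes reported to depend on Lmx1b in limb or kidney gave no call. Of 7 measured of 15 listed, 5 had a negative and 2 a positive log2 fold change, with a median of -0.09. None was called by limma or edgeR, and 1 was called by DESeq2. By limma 2 had an unadjusted p under 0.05, against 15.9% of all genes. Epha7, an ephrin receptor, was 11.9, 12.3 and 10.4 CPM in control pools and 21.4, 19.2 and 14.8 CPM in overexpressing pools (log2 fold change 0.62, SE 0.14, limma adjusted p = 0.0598). Epha4, the receptor that guides motor axons into the dorsal limb, was 464 ± 66.6 and 352 ± 72.9 CPM (SD, n = 3; log2 fold change -0.41, limma adjusted p = 0.201). Both passed with somite number as a covariate, in opposite directions, at limma adjusted p of 0.0153 for Epha7 and 0.00735 for Epha4. Emx2 was lower without passing (log2 fold change -0.26, limma adjusted p = 0.355). Dcn, Kera and Gdf5, genes of later limb connective tissue and joints, had no row.

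**Figure D4:**
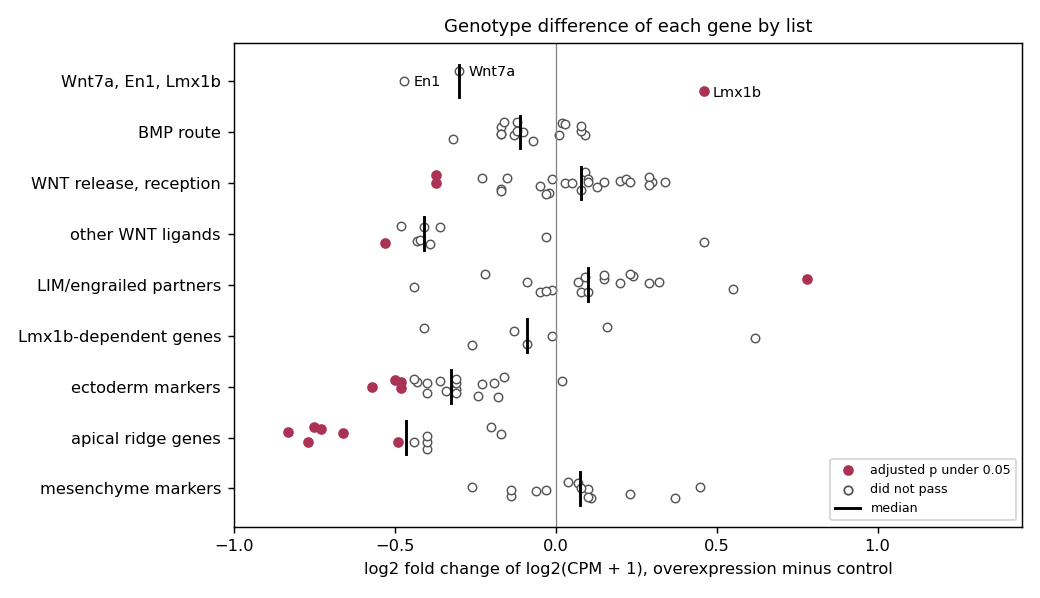
Log2 fold change on log2(CPM + 1), overexpression minus control, for every measured gene of each list, with filled points for genes past an adjusted p of 0.05 by limma, open points for the rest and a bar at each list's median. Lmx1b at 0.46 is filled, Wnt7a and En1 are open, ridge and ectoderm genes lie mostly left of 0 and mesenchyme genes lie on both sides.

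No gene in the table passed a test of whether its stage slope differed between genotypes (0 of 12065 by limma, 240 at an unadjusted p under 0.05). For Wnt7a that difference was -0.09 per somite (limma unadjusted p = 0.505). The genes whose levels ran most closely with each of the 3 genes were listed as a description, by Pearson correlation of log2(CPM + 1) over the 6 libraries, which share genotype and stage. For Wnt7a they were Elovl2 (r = 0.991), Impact (0.988), Zfp869 (0.985), Mettl16 (0.982) and Slc33a1 (0.978), and each of these 5 was lower at each later stage in both genotypes, as Wnt7a was. For En1 they were Arrdc3 (r = 0.988), Ston2 (0.982), Armc8 (0.981), Haus7 (0.980) and Ssr2 (0.976). For Lmx1b they were Bend3 (r = 0.993), Ciz1 (0.991), Deaf1 (0.990), Fgfr1 (0.990) and Cd248 (0.989). Fgfr1, a receptor for ridge growth factors, was 206, 178 and 190 CPM in control pools and 226, 266 and 227 CPM in overexpressing pools. Its highest and lowest pools were those of Lmx1b. Such shared patterns, like those of the 5 genes with Wnt7a, come from choosing genes by correlation over these same pools.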

How the data were processed

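PolyA RNA libraries were made with the TruSeq RNA v2 kit, per the labels. Tools listed in the submitters' processing notes are cutadapt 1.2.1, RSEM 1.17 and edgeR, with build NCBIM37. The deposited table holds CPM that the authors scaled, and its low-value filter is not given in the sources used here. All CPM values were within 0.001 of whole reads (100%).

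limma 3.58.1 in R 4.3.3 (lmFit, eBayes with trend) was fitted to log2(CPM + 1) of all 12065 genes by genotype, two-sided, with Benjamini-Hochberg adjustment. A filter of 1 CPM in 3 libraries removed 0 genes. Slopes used genotype and somite number. The fit was tested on simulated data. Near-identical transcripts were sought with blastn 2.17.0 (97% identity, at least 100 bases).

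Alternatives were pseudocounts of 0.1 and 5, a 5 CPM filter, 2 other scalings, robust eBayes, edgeR 4.0.16 and DESeq2 1.42.0 on recovered reads, somite number as covariate, a replicate block and leaving out each pool. The 3 genes and all lists were chosen with earlier results of these data known. In each other list all called genes, up to 6, or else the 2 with the smallest p were named, and others for their role. Nothing says that pools came from separate litters, so p-values measure only the spread between pools.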

Additional observations from a re-analysis of the deposited data

How the results depend on the processing

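Wnt7a (log2 fold change -0.49 to -0.15) and En1 (-0.62 to -0.25) kept their direction and did not pass under any alternative run, at adjusted p of 0.15 to 0.757 and 0.0662 to 0.453. En1 has no value under the 5 CPM filter. Lmx1b kept its direction and was called under 11 of 17 alternatives. It was not called by robust eBayes without a trend (0.46, adjusted p = 0.117) or with the replicate block given below. The call was also lost without control pool 2 or 3 or overexpressing pool 1 or 2. Its log2 fold change ran from 0.38 to 0.54 over the fits without single pools. Genes called numbered 177, but 86 by robust eBayes, 290 by DESeq2, 340 with somite number as covariate and 56 to 162 without single pools. List genes called numbered 18, but 3 by robust eBayes, 28 with somite number and 3 to 14 without single pools. The cause was not tested.

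Without single pools the slopes per somite ran from -0.33 to -0.24 for Wnt7a, -0.09 to 0.04 for En1 and -0.12 to 0.01 for Lmx1b. The En1 share of ectoderm differed by -0.11, by -0.23 with a pseudocount of 0.1 and by -0.18 to -0.05 without single pools. It differed by 0.11 with a pseudocount of 5, which is larger than every En1 value. The Wnt7a share ran from -0.12 to 0.20, the Wnt7a over En1 ratio from -0.07 to 0.33 and the Lmx1b share from 0.31 to 0.48. Axin2 turned to 0.03 without control pool 1 and 0.05 without overexpressing pool 1. En1 rested on 23 to 50 reads a pool.

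Replicate numbers are somite stages, and the same-numbered pools correlated at 0.033, -0.152 and 0.381 in their deviations from the genotype means, so the numbers were not taken as pairing. Pool 3 of each genotype correlated best with its own number and the other pools did not. With the replicate block Lmx1b was 0.46 (adjusted p = 0.0612), 258 genes were called and 28 list genes were called.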
